A study of Mus musculus with 8 samples.

Results

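The 7 genes described here make and regulate the sterol regulatory element-binding proteins (SREBPs): Srebf1 and Srebf2, which encode the factors, Scap, Insig1 and Insig2, which govern their exit from the endoplasmic reticulum, and Mbtps1 and Mbtps2, which encode the site-1 and site-2 proteases. They were taken as every non-control probe whose gene name in the scanner files was one of these symbols, which gave 11 of 55681 probes and 7 of 34836 gene names: 2 each for Srebf2, Insig2, Mbtps1 and Mbtps2, and 1 each for Srebf1, Scap and Insig1. Mouse liver RNA was measured on 8 one-colour Agilent arrays, 4 from liver samples that received the adenovirus AdLeXis and 4 from liver samples that received AdGFP. Both groups were bl6 mice aged 12 weeks and fed chow, with RNA isolated on day 6. LeXis is a long non-coding RNA whose gene neighbours Abca1, a cholesterol efflux gene, and the virus supplies it from a vector whose promoter the labels do not give. The treatment text in the labels instead gives a control and an shRNA vector for Raly, so the groups follow the treatment tag. The labels do not say whether each sample was a separate animal, and p-values then reflect only the spread among samples, possibly technical. The comparison asks whether raising LeXis changes the transcripts of the machinery that controls cholesterol and fatty acid synthesis.

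SREBPs are made as precursors anchored in the membrane of the endoplasmic reticulum. Scap is the escort and sterol sensor that carries them in COPII vesicles to the Golgi, where the site-1 protease and then the site-2 protease release the part that enters the nucleus. When sterols are plentiful, the Insig proteins hold Scap and its cargo in the endoplasmic reticulum. In liver, SREBP-2 mainly drives genes of cholesterol synthesis and uptake and SREBP-1c mainly drives genes of fatty acid synthesis. Much of this control acts on the proteins, which the arrays do not measure, while Srebf1, Srebf2 and Insig1 are themselves known targets of SREBPs. The single Srebf1 probe does not separate SREBP-1a from SREBP-1c.

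Insig1 and Srebf2 are known SREBP targets with a single start site in the RefSeq table, so the 250 bases before their start sites are given from RefSeq (GRCm38.p6, forward strand), at chr5:28071162-28071411 for Insig1 and chr15:82147019-82147268 for Srebf2. Capitals mark every match, on either strand, to TCACNCCAC (core of the sterol regulatory element), its first 8 letters with C in place of N (TCACCCCA), CACGTG (an E-box), CCAAT (bound by NF-Y) and GGGCGG (a GC box, bound by Sp1). The 8-letter search was added after the Srebf2 sequence had been read, and no matches overlapped within these windows.
Insig1: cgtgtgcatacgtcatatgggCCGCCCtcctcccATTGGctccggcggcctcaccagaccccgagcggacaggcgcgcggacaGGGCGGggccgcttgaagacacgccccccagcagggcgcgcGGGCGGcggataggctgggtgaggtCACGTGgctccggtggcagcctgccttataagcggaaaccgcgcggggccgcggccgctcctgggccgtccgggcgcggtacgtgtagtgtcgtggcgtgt
Srebf2: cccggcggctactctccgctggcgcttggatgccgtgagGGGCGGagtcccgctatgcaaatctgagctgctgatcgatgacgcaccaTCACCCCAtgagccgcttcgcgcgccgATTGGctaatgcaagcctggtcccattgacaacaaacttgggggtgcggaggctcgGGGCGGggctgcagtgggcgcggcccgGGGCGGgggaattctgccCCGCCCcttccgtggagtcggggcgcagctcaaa
The Insig1 window held an E-box 101 bases before the start, a CCAAT box on the reverse strand and 3 GC boxes. The Srebf2 window held TCACCCCA 162 bases before the start, a CCAAT box on the reverse strand and 4 GC boxes. All 7 genes matched the RefSeq table, with 12 promoter windows between them. None of the 12 windows (0) held the full TCACNCCAC, which 1.05% of all 32851 mouse promoter windows of this length held, and 1 held TCACCCCA, against 1.34% of all windows. An E-box was in 2 of the 12 windows, those of Insig1 and of 1 Scap start, against 6.02% of all windows. A CCAAT box was in 5 windows and a GC box in 8, against 33.8% and 32.7% of all windows. A match describes the letters of a window and is no evidence of binding.

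The label of the treated group was checked first on a probe of a lincRNA region on chromosome 4 beside Abca1, A_30_P01022419. Its log2 signal was 9.90 to 10.70 on the AdLeXis arrays, against 0.53 to 1.01 on the AdGFP arrays, where it was not well above background on any of the 4 arrays. AdLeXis 1 was the lowest AdLeXis array at 9.90, with the others at 10.68 to 10.70. Before scaling, the 75th percentile of intensity was higher on every AdLeXis array, at 381 to 448, against 220 to 297 on AdGFP arrays. Spots well above background made up 62.6% to 67.7% on AdLeXis arrays and 58.9% to 62.5% on AdGFP arrays. All 8 arrays were on 1 slide in 1 scan, with each group in a row of its own, so row and group cannot be told apart. The number of arrays limits the precision. All values below are log2 intensities after each array was scaled on its 75th percentile. They compare 1 probe between groups and are not levels that can be set against another gene's. Adjusted p-values are from limma over all 34440 probes that passed the filter on dim probes, with a threshold of 0.05.

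All 11 probes passed the filter and were well above background on all 8 arrays. Of these, 1 rose in AdLeXis samples and 0 fell, and the remaining 10 did not pass the test. Across all probes tested, 7.7% were called higher, 7.17% lower and 14.9% in either direction, so the members' share was near the background. With arrays scaled on their medians the split over all probes was 1459 higher and 3150 lower, in place of 2651 higher and 2470 lower. The same probe was the 1 member at an unadjusted p under 0.05, against 30.1% of all probes. The log2 differences of the 11 probes, AdLeXis minus AdGFP, ran from -0.30 to 0.35 with a median of -0.09, against 0.0022 over all probes. The difference was negative for 9 probes and positive for 2. The 95% intervals of all probes but the called one included 0, and they allowed falls of up to 1.61-fold and, counting the called probe, rises of up to 1.46-fold. Larger changes in these transcripts lay outside every interval under this scaling. The bounds hold for this scaling alone. With normexp background correction and quantile scaling the difference of Insig2 probe A_55_P1957624 was -0.47. The arrays measured whole liver, in which fewer cells of a type and less RNA per cell cannot be told apart.

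**Figure D1:**
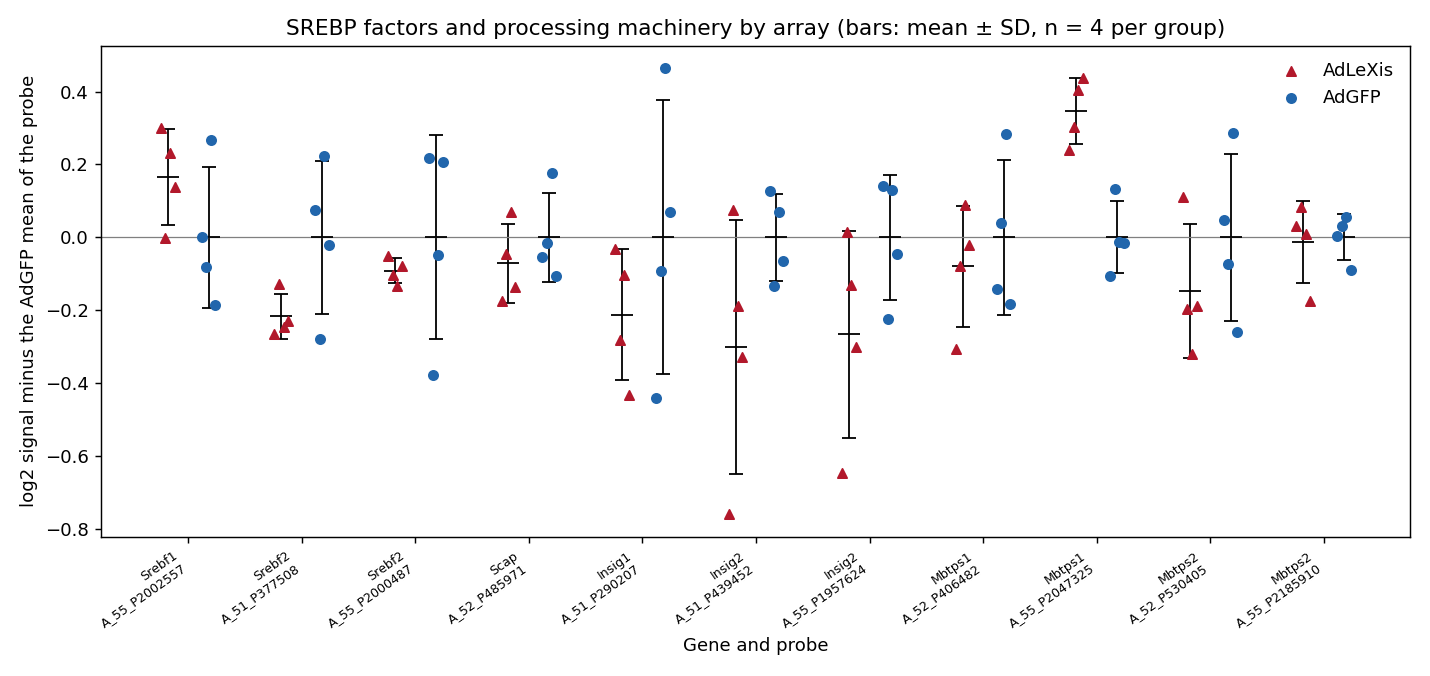
Log2 signal of each probe of the SREBP machinery on each array, minus the AdGFP mean of that probe (vertical axis), for the 11 probes (horizontal axis), AdLeXis as triangles and AdGFP as circles. Bars are mean ± SD, n = 4 per group. Only for Mbtps1 probe A_55_P2047325 does every AdLeXis array exceed every AdGFP array, and AdLeXis 1 lies lowest on both Insig2 probes.

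Srebf1 and Srebf2, the genes of the factors themselves, did not differ between the groups past the threshold. Srebf1 (A_55_P2002557, mm9 chr11:60012664-60012723, reverse strand) had log2 signals of 9.26, 8.95, 9.19 and 9.09 in AdLeXis samples, against 8.96, 8.87, 9.22 and 8.77 in AdGFP samples. All 4 AdLeXis arrays were above the AdGFP median, but AdGFP 3 was above all of them except AdLeXis 1, so the groups overlapped. The difference was 0.17 (SE 0.12, 95% interval -0.11 to 0.44, limma adjusted p = 0.397). Srebf2 was read by probes 933 bases apart in its transcript, A_51_P377508 (mm9 chr15:82034765-82034824, forward strand) nearer the 3′ end and A_55_P2000487 (mm9 chr15:82030068-82030127). The first had 7.76, 7.89, 7.78 and 7.79 in AdLeXis samples, against 8.10, 7.74, 8.25 and 8.002 in AdGFP samples. All 4 AdLeXis values lay below the AdGFP median, within the AdGFP range that AdGFP 2 extended downward. The difference was -0.22 (SE 0.12, 95% interval -0.48 to 0.05, limma adjusted p = 0.248). With normexp background correction and quantile scaling it was -0.33 and passed the threshold (limma adjusted p = 0.0334). The second Srebf2 probe had 6.26, 6.21, 6.17 and 6.23 in AdLeXis samples, against 6.53, 5.93, 6.26 and 6.52 in AdGFP samples, and differed by -0.09 (SE 0.14, limma adjusted p = 0.704). On both Srebf2 probes the AdGFP arrays spread more widely than the AdLeXis arrays, with an SD of 0.06 in AdLeXis and 0.21 in AdGFP on the first, and 0.03 in AdLeXis and 0.28 in AdGFP on the second.

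Scap, the escort, had 13.45, 13.58, 13.70 and 13.49 in AdLeXis samples, against 13.57, 13.61, 13.80 and 13.52 in AdGFP samples (A_52_P485971, mm9 chr9:110287280-110287339, forward strand). The groups overlapped over most of their range, although 2 AdLeXis arrays lay below the lowest AdGFP array. The difference was -0.07 (SE 0.10, 95% interval -0.29 to 0.15, limma adjusted p = 0.672), and its sign turned with normexp background correction (0.14).

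The Insig genes, whose products retain Scap in the endoplasmic reticulum, also did not pass the test. Insig1, the sterol-responsive member, had 9.61, 9.36, 9.54 and 9.21 in AdLeXis samples, against 9.20, 9.55, 10.10 and 9.71 in AdGFP samples (A_51_P290207, mm9 chr5:28404246-28404305, forward strand). AdGFP 3 was the highest and AdGFP 1 the lowest of all 8 arrays, so every AdLeXis value fell inside the AdGFP range. The difference of -0.21 had the largest error of the 11 probes (SE 0.19, 95% interval -0.64 to 0.22, limma adjusted p = 0.499). Insig2, the second retention protein, was read by probes that the files place on different transcripts of the gene, with starts 1048 bases apart in the genome, A_51_P439452 (mm9 chr1:123201085-123201144, reverse strand) and A_55_P1957624 (mm9 chr1:123202133-123202192). The first had 13.04, 13.87, 13.61 and 13.47 in AdLeXis samples, against 13.92, 13.66, 13.87 and 13.73 in AdGFP samples. Of the AdLeXis arrays, 3 lay below the lowest AdGFP array and AdLeXis 2 lay near the top of the AdGFP range. The difference was -0.30 (SE 0.17, 95% interval -0.69 to 0.09, limma adjusted p = 0.279). The second had 10.82, 11.48, 11.33 and 11.17 in AdLeXis samples, against 11.61, 11.24, 11.59 and 11.42 in AdGFP samples. It repeated the order of the AdLeXis arrays on the first probe, with AdLeXis 1 lowest and AdLeXis 2 highest. Its difference was -0.27 (SE 0.16, 95% interval -0.62 to 0.09, limma adjusted p = 0.296), and -0.47 with normexp background correction, where it passed (limma adjusted p = 0.0395). Without AdLeXis 1 the differences of the Insig2 probes were -0.15 and -0.14 and did not pass. AdLeXis 1 was also the array with the lowest AdLeXis signal of the lincRNA probe, and the part of that array's lower signal in the Insig2 values was not tested.

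Mbtps1, which encodes the site-1 protease that makes the first cut, was the gene with the called probe. Probe A_55_P2047325 (mm9 chr8:122032056-122032115, reverse strand) had 12.19, 12.26, 12.36 and 12.39 in AdLeXis samples, against 11.85, 12.08, 11.94 and 11.94 in AdGFP samples. The lowest AdLeXis array exceeded the highest AdGFP array, a separation in one direction or the other that 22.9% of all probes showed. The rise was 0.35 on the log2 scale, or 1.27-fold (SE 0.09, 95% interval 0.14 to 0.55, limma adjusted p = 0.0355), and the adjusted p ran from 0.0102 to 0.405 over 20 alternatives. The call was lost in 11 of the 20. These included the mean of the gene's probes (0.13, adjusted p = 0.405), each array scaled on its median (0.26, adjusted p = 0.168), normexp background correction (0.18, adjusted p = 0.0732) and no filter on dim probes (0.35, adjusted p = 0.0854). It was also lost when any of 6 arrays was left out: AdLeXis 2 (0.36), AdLeXis 3 (0.33), AdLeXis 4 (0.32), AdGFP 1 (0.31), AdGFP 3 (0.34) or AdGFP 4 (0.34), with adjusted p from 0.0671 to 0.0954. The difference stayed positive in all 20.

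The other Mbtps1 probe, A_52_P406482 (mm9 chr8:122071553-122071612), did not show this rise. It had 5.79, 6.02, 6.18 and 6.07 in AdLeXis samples, against 5.95, 6.14, 6.38 and 5.91 in AdGFP samples. The groups overlapped, and the difference was -0.08 (SE 0.13, 95% interval -0.38 to 0.22, limma adjusted p = 0.737). The probes lie 3872 bases apart in the transcript, the called one at bases 4310 to 4369 and the other at bases 438 to 497. Because they disagree, 30 bases of each are given, on the transcript's strand. These are the last 30 of the called probe (mm9 chr8:122032056-122032085) and the first 30 of the other (mm9 chr8:122071583-122071612). Capitals mark AATAAA, the letters of a polyadenylation signal, and whether they act as one here was not tested.
Mbtps1 A_55_P2047325: aggaaattttcAATAAAtatgcataacctt
Mbtps1 A_52_P406482: actgaggttttctttatgttggacaagtct
Within an array, the called probe minus the other was 6.28 ± 0.10 in AdLeXis samples and 5.86 ± 0.21 in AdGFP samples (SD, n = 4 per group), a difference of 0.43 with no overlap between the groups. The two-sided exact permutation p was 0.0286, the smallest that 70 relabellings can give, and 0.114 after Benjamini-Hochberg adjustment over the 4 genes with 2 probes, which is the lowest value that 1 gene alone could reach. This comparison was chosen after the values had been seen. For Srebf2, Insig2 and Mbtps2 the same within-array difference between probes changed by -0.13, -0.03 and 0.14 (exact permutation, adjusted p = 0.486 for each).

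Mbtps2, which encodes the site-2 protease that makes the second cut within the membrane, did not pass on either probe. Probe A_55_P2185910 (mm9 chrX:153988884-153988943, reverse strand) had 6.73, 6.78, 6.70 and 6.52 in AdLeXis samples, against 6.70, 6.72, 6.75 and 6.60 in AdGFP samples. The AdLeXis arrays covered the whole AdGFP range, and the difference of -0.01 was the smallest of the 11 probes (SE 0.09, 95% interval -0.21 to 0.19, limma adjusted p = 0.944). Probe A_52_P530405 (mm9 chrX:153988656-153988715) was the dimmest, with 3.88, 3.58, 3.45 and 3.58 in AdLeXis samples, against 3.82, 3.70, 4.06 and 3.51 in AdGFP samples (difference -0.15, SE 0.14, limma adjusted p = 0.533). Its unscaled intensity was 14.8 to 17.1 in AdLeXis samples and 7.58 to 14.3 in AdGFP samples.

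**Figure D2:**
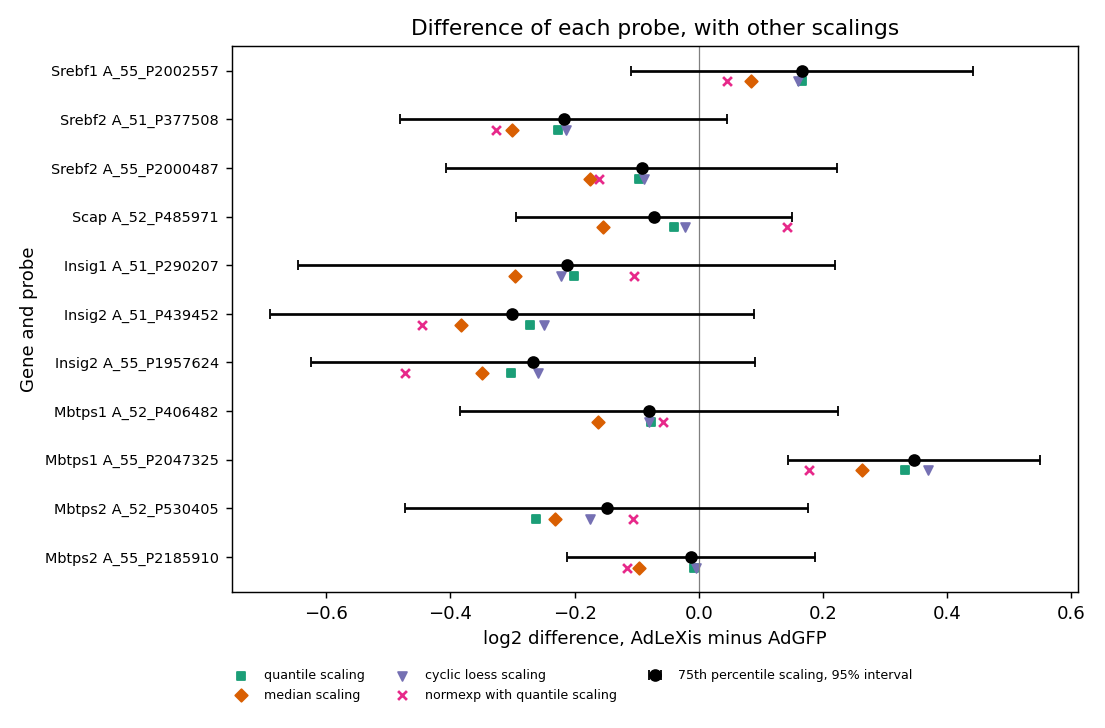
Log2 difference, AdLeXis minus AdGFP (horizontal axis), of the 11 probes (vertical axis), with 95% intervals of the limma fit under 75th percentile scaling and, just below each, the value under 4 other scalings. The interval of Mbtps1 A_55_P2047325, 0.14 to 0.55, is the one that leaves out 0, and Scap changes sign with normexp.

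Differences between genes within an array cancel any scaling factor of that array, and 4 pairs were compared in this way with an exact permutation test, two-sided, over 70 relabellings and with adjustment over the 4 pairs. The size of such a difference also holds the probes' own brightness, so only its change between groups is read. Srebf1 minus Srebf2 was 1.5, 1.06, 1.41 and 1.30 in AdLeXis samples, against 0.86, 1.13, 0.98 and 0.77 in AdGFP samples. Each AdLeXis array but AdLeXis 2 exceeded the highest AdGFP array, and the group difference was 0.38 (exact permutation p = 0.0571, adjusted p = 0.114). Mbtps1 minus Mbtps2 was 5.47, 5.48, 5.65 and 5.87 in AdLeXis samples, against 5.15, 5.36, 5.19 and 5.33 in AdGFP samples. The groups did not overlap, and the difference was 0.36 (exact permutation p = 0.0286, the smallest possible, adjusted p = 0.114). With the other probe of Mbtps1 against the same Mbtps2 probe it was -0.07. Insig1 minus Insig2 changed by 0.09 (exact permutation p = 0.8, adjusted p = 0.8) and turned to -0.13 without AdLeXis 1 and to -0.10 without AdGFP 1. Scap minus Insig1 changed by 0.14 (exact permutation p = 0.457, adjusted p = 0.61). No pair passed after adjustment (0 of 4, with 1 at an unadjusted p under 0.05). With this adjustment a single pair at the smallest possible p reaches 0.114, so complete separation of 1 pair could not pass.

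**Figure D3:**
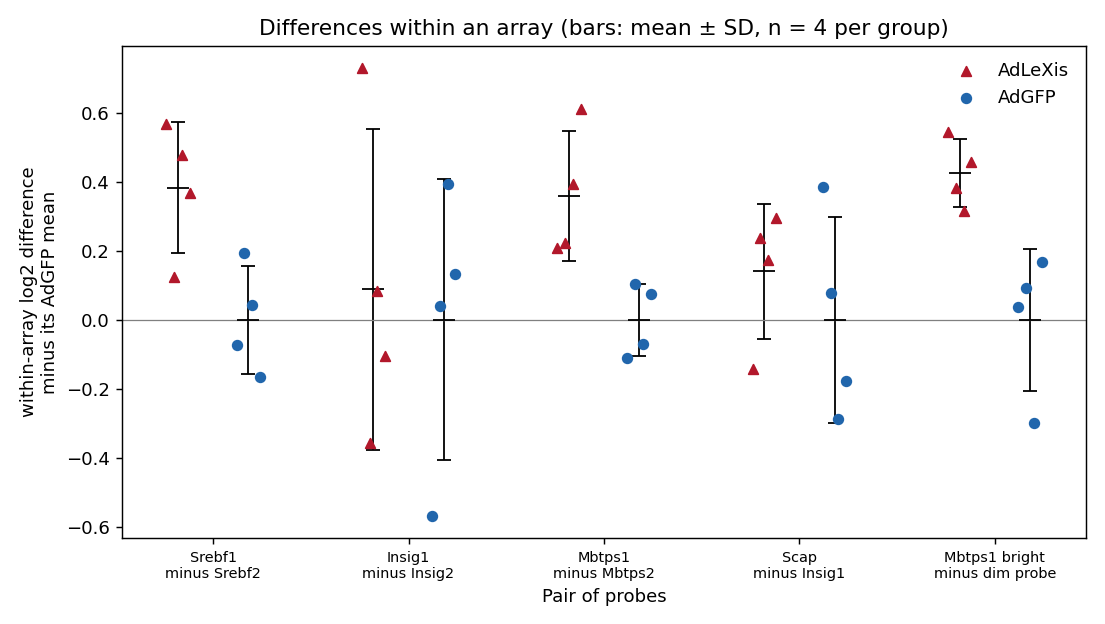
Within-array log2 differences between pairs of probes, minus the AdGFP mean of each pair (vertical axis), AdLeXis as triangles and AdGFP as circles, with mean ± SD (n = 4 per group). The groups separate for Mbtps1 minus Mbtps2 (0.36) and for the Mbtps1 probes (0.43) and overlap for the other pairs.

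The genes around the machinery were read from 6 lists, each gene by its brightest probe that passed the filter. Of all 23985 genes so measured, 7.93% were called higher and 7.88% lower, with a median log2 difference of -0.0018. Among 26 genes of retention, ubiquitination and turnover, 1 rose and 1 fell, with a median of 0.11. Mtor, the kinase of a growth pathway that promotes SREBP activity, rose by 0.38 on its brightest probe (SE 0.11, limma adjusted p = 0.0489). Its other probe gave 0.14. Npc2, which hands cholesterol out of the lysosome, had 11.63, 11.94, 11.90 and 11.52 in AdLeXis samples, against 12.55, 12.43, 12.44 and 12.51 in AdGFP samples. The groups were well apart, with a difference of -0.73 (SE 0.11, limma adjusted p = 0.00557). Vcp, the ATPase that extracts ubiquitinated proteins from the endoplasmic reticulum, and its cofactor gene Ufd1l gave -0.27 and -0.24 and did not pass (limma adjusted p = 0.0691 and 0.0847).

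Of 12 COPII coat genes, which form the vesicles that carry Scap and its cargo, 1 rose and 0 fell, with a median of -0.02. The gene was Sec24a, a cargo-binding subunit, at 0.36 (SE 0.10, limma adjusted p = 0.0439). Sec13, Sec24d and Sar1b gave -0.32, -0.27 and 0.30 and did not pass (limma adjusted p = 0.0837, 0.0726 and 0.247). Of 8 other substrates of the site-1 and site-2 proteases, 1 fell and 0 rose, with a median of -0.09: Creb3, a membrane-bound transcription factor, at -0.44 (SE 0.11, limma adjusted p = 0.0284). Creb3l1, Gnptab and Creb3l2 gave -0.26, -0.23 and 0.15 and did not pass. Of 16 partner factors and coactivators, 1 fell and 0 rose, with a median of 0.07. This was Nr1h2, the gene of the oxysterol receptor LXR-beta, at -0.39 (SE 0.10, limma adjusted p = 0.0371). Nr1h3, the gene of LXR-alpha, which drives Srebf1 in liver, gave -0.06 (limma adjusted p = 0.679). Kpnb1, Nfyc and Sp1 gave 0.33, 0.31 and 0.21 and did not pass. The single calls for Mtor, Sec24a, Creb3 and Nr1h2 depended on the arrays used. Leaving out any array but AdLeXis 1 took the count of higher genes in the turnover list, the count of higher genes in the coat list and the count of lower partner genes to 0. The count of lower protease substrates was 0 without AdLeXis 4, AdGFP 1, AdGFP 2 or AdGFP 3. Without AdLeXis 1, 2 coat genes and 3 partner genes were higher.

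The SREBP-2 targets, most of them genes of cholesterol synthesis, held the most calls among the 6 lists. Of 23 SREBP-2 targets 14 fell in AdLeXis samples and 0 rose, with a median of -0.79, and the lower count was 11 to 16 over 20 alternatives. Sqle, which makes squalene epoxide, had 12.33, 12.35, 11.81 and 11.60 in AdLeXis samples, against 13.23, 13.33, 13.49 and 13.21 in AdGFP samples. Fdps, the farnesyl diphosphate synthase gene, had 13.53, 13.50, 13.39 and 13.01 in AdLeXis samples, against 14.49, 14.63, 14.88 and 14.38 in AdGFP samples. The groups were apart for both genes, with differences of -1.29 (SE 0.18, limma adjusted p = 0.00392) for Sqle and -1.24 (SE 0.15, limma adjusted p = 0.00251) for Fdps. Hsd17b7 and Cyp51, which act later in cholesterol synthesis, fell by 1.22 and 1.1. The 95% interval of Sqle, -1.71 to -0.88, lay wholly below those of both Srebf2 probes and of Insig1, a SREBP target itself. The difference between Sqle and these genes was not tested, and Sqle was named for its small p.

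Of 15 SREBP-1 targets 5 fell and 1 rose, with a median of -0.29. Scd1, which desaturates fatty acids, fell by 0.82 (SE 0.16, limma adjusted p = 0.0141), and Acss2, Elovl5, Fasn and Fads1 fell by 0.71, 0.60, 0.50 and 0.60. Thrsp, a lipogenic factor gene, rose by 0.56 (SE 0.15, limma adjusted p = 0.0427). The remaining 9 did not pass, with differences from -0.36 to 0.14. Over the whole list 11 differences were negative and 4 positive. Leaving out 1 array left 1 to 4 of the falls: 4 without AdLeXis 1, 3 without AdLeXis 3, 2 without AdLeXis 2, AdLeXis 4 or AdGFP 4, and 1 without AdGFP 1, AdGFP 2 or AdGFP 3. The rise of Thrsp was not among the calls without AdLeXis 2, AdLeXis 3, AdLeXis 4, AdGFP 2 or AdGFP 3, where the higher count was 0.

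**Figure D4:**
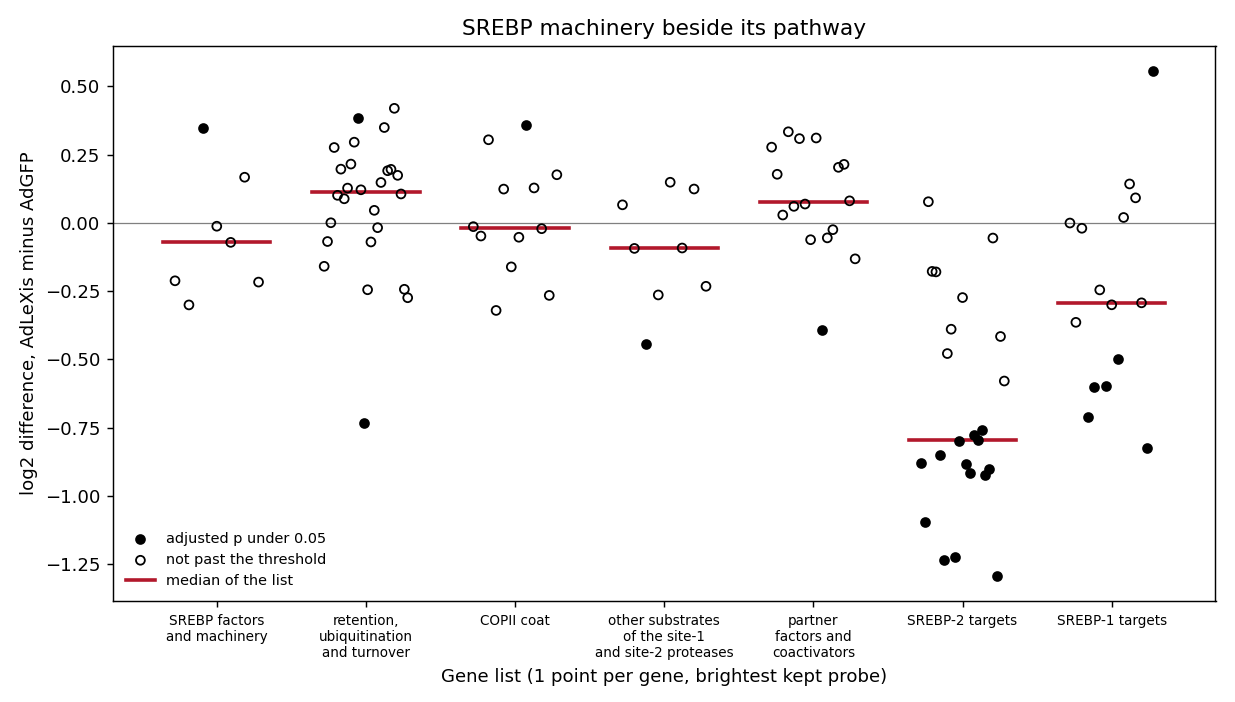
Log2 difference, AdLeXis minus AdGFP (vertical axis), of the 7 SREBP machinery genes and of the genes of 6 lists (horizontal axis), 1 point per gene by its brightest probe, filled where the adjusted p was under 0.05. Red lines are medians. The SREBP-2 targets lie lowest, with a median of -0.79, while the machinery genes lie between -0.30 and 0.35.

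Markers of liver cell types also moved between the groups, and their part in these results was not tested. Of all genes measured, 7.88% were called lower. A linear sum weighs the brightest probes most, so it does not speak for each marker. Of 10 hepatocyte markers 7 fell, and their summed linear intensity was 1332778 to 1555125 in AdLeXis samples, against 2015905 to 2126818 in AdGFP samples. Of 10 T and NK cell markers 8 fell, with sums of 7970 to 8598 in AdLeXis samples, against 15328 to 16428 in AdGFP samples. Cd4, the brightest of them, fell by 0.83 on the probe used, while its other probe gave 0.21. Of the 10 differences 9 were negative and 1 positive, Ncr1 at 0.73, which did not pass (limma adjusted p = 0.104). Of 10 Kupffer cell and macrophage markers 3 fell, with sums of 97646 to 124312 in AdLeXis samples, against 129532 to 162691 in AdGFP samples. The differences were negative for 8 of them and positive for 2, Vsig4 at 0.50 and Clec4f at 0.10 (limma adjusted p = 0.103 and 0.762). Of 10 stellate cell markers 3 fell, with sums of 28506 to 32691 in AdLeXis samples, against 28449 to 39184 in AdGFP samples. None of 10 endothelial markers passed (0), and 1 of 7 bile duct markers fell, with Cftr not well above background. Their sums overlapped between the groups, at 19562 to 21979 in AdLeXis samples and 18014 to 20830 in AdGFP samples for endothelial markers, and 1351 to 2265 in AdLeXis samples and 1322 to 2193 in AdGFP samples for bile duct markers. All 10 hepatocyte markers passed the filter on dim probes. So did every marker of the other cell types but Cftr, so passing does not tell the cell types apart.

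For each gene of the machinery, the 2 of 14976 other named genes whose log2 profile over the 8 arrays was most alike were found by the root-mean-square distance after centring each gene on its own mean. The profiles share arrays and scaling, so the distances are a description. Srebf1 was nearest to Utp20 (0.06) and Rprd1b (0.07), and Srebf2 to Pofut2 (0.06) and Cyp20a1 (0.06). Scap was nearest to Oxsr1 (0.04) and Gcgr (0.04), and Insig1 to Il17d (0.10) and Inpp5f (0.12). Insig2 was nearest to Erich5 (0.09) and Rtn4ip1 (0.09). Mbtps1 was nearest to Clpb (0.02) and Slc6a13 (0.04), which were higher by 0.32 and 0.33 (limma adjusted p = 0.0389 and 0.0468). The distance includes the group difference, so neighbours this close to the called probe must have nearly its difference. Mbtps2 was nearest to Nrn1 (0.04) and Fam89b (0.04). No gene of the machinery was among the nearest genes of another.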

How the data were processed

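Total RNA of 8 mouse liver samples was hybridised to one-colour (Cy3) Agilent arrays. Spot intensity in the deposited scanner files is linear. Per the file headers background subtraction and detrending were done array by array with Feature Extraction 11.5.1.1 (11.5.1.11 per the submitters' processing notes), with no scaling between arrays. The authors' deposited value table holds the same intensity. Probe coordinates are of mm9 per the file headers, with no exon or UTR annotation used here. Log2 processed signals were scaled on the 75th percentile of each array's non-control spots. Control and outlier spots were left out. A filter on dim probes asked for 4 or more arrays well above background, with 2 or more measured in each group, and kept 34440 probes. Groups were compared with limma 3.58.1 (lmFit, eBayes) in R 4.3.3, two-sided, with Benjamini-Hochberg adjustment over all kept probes.

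Gene symbols of 27656 probes were updated by RefSeq accession (GRCm38.p6). Replicate numbers are those of the titles, which differ from the numbers in file names. The members and lists were chosen with earlier results of these data known. Genes named are the 7 members, up to 4 genes of smallest p per pathway list (with Nr1h3 and Fasn), and the 2 nearest profiles of each member. Fads1, Thrsp, Cftr, Cd4, Ncr1, Vsig4 and Clec4f were named after their values were seen. Most genes of the pathway and marker lists enter the counts without being named. Other scalings, background correction, filters, probe choices, variance models, a replicate block and leaving out each array were tried.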

Additional observations from a re-analysis of the deposited data

Results flagged for a closer look

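A single array standing apart was sought in 122 groups of 4 arrays, from the probes named and from within-array differences. Cell type markers and the other probe of Mtor were not among them. In 3 of the 122 groups an array stood apart, which is below the rate of about 1 in 20 that chance gives. Each time the array was AdLeXis 1. Ufd1l (A_55_P2047509) had a log2 signal of 12.71 on that array, against 12.84 to 12.87 on the other AdLeXis arrays. Slc6a13 (A_51_P438083) had 14.50, against 14.71 to 14.74. The lincRNA probe beside Abca1 (A_30_P01022419) had 9.90, against 10.68 to 10.70. No probe of the SREBP machinery stood apart in this way.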

How the results depend on the processing

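Differences are AdLeXis minus AdGFP. Of 20 alternatives, the call for Mbtps1 A_55_P2047325 held in 9. It was lost with median scaling (0.26), normexp background correction (0.18), no filter on dim probes (0.35), the mean of a gene's probes (0.13) and the replicate block (0.35, adjusted p = 0.0757). Leaving out 1 array gave 0.31 to 0.39, with 2 of 8 fits keeping the call, and a count of 0 to 1 higher member probes. The count of higher member probes was 0 with median scaling, normexp, no filter and the block. With normexp, 2 were lower: Srebf2 A_51_P377508 (-0.33) and Insig2 A_55_P1957624 (-0.47), and Scap turned to 0.14. Leaving out 1 array gave -0.14 to 0.015 for Mbtps1 A_52_P406482, -0.044 to 0.042 for Mbtps2 A_55_P2185910 and -0.13 to 0.24 for Insig1 minus Insig2. Mbtps1 minus Mbtps2 was -0.067 with A_52_P406482. The cause was not tested. In the lists, the higher count of the turnover list was 0 with the mean of probes, median scaling, no filter and the block, and 4 with normexp, and its lower count 3 with the trended robust fit. The higher COPII count was 0 with the mean of probes, median scaling, no filter and the block and 2 with normexp, and the lower count 2 with quantile scaling and the trended robust fit and 1 with normexp. Lower protease substrates numbered 0 with no filter and the block and 2 with normexp. Higher partner genes numbered 1 with 1 probe per gene, the mean of probes, detection on all 8 arrays and quantile scaling, 2 with cyclic loess and the trended robust fit, and 4 with normexp. Lower partner genes numbered 0 with cyclic loess, quantile scaling, normexp, no filter and the block. Higher SREBP-1 targets numbered 0 with median scaling, no filter and the block and 2 with normexp, and lower ones 1 with no filter and 2 with the block. Leaving out 1 array gave 0 to 1 higher turnover genes, 0 to 2 higher COPII genes, 0 to 1 lower substrates, 0 to 3 higher and 0 to 1 lower partner genes, and 0 to 1 higher and 1 to 4 lower SREBP-1 targets. Over all probes the calls were 2651 higher and 2470 lower, 1459 and 3150 with median scaling, and 2969 in all with no filter. The numbers of the titles were not taken as pairs. Same-numbered arrays correlated at 0.005, 0.066, 0.103 and 0.008 in their deviations. AdLeXis 2 and AdLeXis 3 were closest to the AdGFP array of their own number, and AdLeXis 1 and AdLeXis 4 were not. The replicate block gave 3534 calls in place of 5121, but it also leaves fewer degrees of freedom, so the counts cannot decide whether samples were paired. All arrays shared 1 slide and scan, so a slide or scan block was not run. Mbtps2 probe A_52_P530405 had the lowest unscaled intensity of the 11 member probes on every array.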
